A study of Homo sapiens with 3 samples.

Results

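A group of 10 genes of the S100 family (S100A2, S100A3, S100A4, S100A6, S100A8, S100A9, S100A10, S100A11, S100A14 and S100P) was examined in HCT116 cells after SMARCA4 knockdown. They were selected by symbol from the gene names of the array, where they had 11 probes of 58201, and 8 of the 10 genes had a signal well above background, each of them on every array, among 22619 genes measured on at least 1 array. S100 proteins are small calcium-binding proteins built from a pair of EF-hand motifs, and most of them act as dimers that expose a binding surface for partner proteins when calcium is bound. Inside cells they bind cytoskeletal proteins, annexins and enzymes, and some are secreted and bind receptors such as AGER. Most S100 genes lie together on the long arm of chromosome 1, and several, including S100A4 and S100P, are known for their association with migration and metastasis of colorectal cancer cells.

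HCT116 is a human colorectal cancer cell line, and SMARCA4 (BRG1) is an ATPase that drives chromatin remodelling by SWI/SNF complexes. Cells had been transfected with 1 of 2 small interfering RNAs against SMARCA4 (SMARCA4-KD1 and SMARCA4-KD2) or with the scrambled negative control (NC), and total RNA of each was hybridised to 1 array, so that no condition had a replicate and the time after transfection is not given in the sources used here. Titles and protocol name SMARCA4, whereas the treatment entry of each record, from which the knockdown number was taken, names PRMT1, and both genes were therefore checked first. The SMARCA4 probe had a processed signal of 3960.2 (SMARCA4-KD1), 4129 (SMARCA4-KD2) and 14026 (NC). Both knockdown arrays were thus low, at 26.6% and 28.8% of NC after scaling, while PRMT1 was 1.20-fold and 1.29-fold higher than in NC. The knockdown arrays were on 1 slide and scan and the NC array on another, and so slide and knockdown cannot be told apart in any value below.

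Between 45.7% and 47.3% of all probes were well above background on each array, and no spot was saturated. Of 8 markers of colorectal epithelium, EPCAM, KRT8, KRT18, KRT19, CDH1 and CDX2 were well above background on every array, and VIL1 and CEACAM5 were not on any. The summed signal of the measured epithelial markers was 369589 to 397861 per array. Markers of cells in which other S100 genes are abundant were dim. The 6 measured of 10 myeloid markers summed to 263, 249 and 391 in SMARCA4-KD1, SMARCA4-KD2 and NC. Their sum was lower in both knockdowns, but not each marker, since AIF1 was higher in both and PTPRC differed in sign. CSF1R gave 38.8, 43.9 and 170.5 and was the only one of them 1.5-fold apart in both. The 2 measured of 8 squamous markers, SPRR2A and SPRR1B, summed to 202, 210.0 and 142 in the same order of arrays. SPRR2A gave 174, 185 and 132 and was higher in both knockdowns. SPRR1B gave 27.8, 24.8 and 10.2 and was not well above background in NC. It was kept for its knockdown signals, which fixed its direction in advance. MPO, ELANE, KRT5, KRT14 and TP63 were not well above background on any array, and no probe had the names FCGR3B and LYZ. Of 6 fibroblast markers only COL1A1 was measured, at 348 to 477. Their part in the results was not tested.

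Among the S100 members, 3 genes were at least 1.5-fold lower than NC in both knockdowns, namely S100A2, S100A3 and S100A4, which encode, in order, a protein known from basal epithelial cells, a cysteine-rich member known from hair follicles, and a member that binds non-muscle myosin and is linked to cell motility. S100A10, the partner of annexin A2, was past 1.5-fold in SMARCA4-KD2 alone. No member was 1.5-fold higher in either knockdown, as 11.2% and 10.1% of all measured genes were, or 6.36% in both. Against NC, 3 of the 8 measured members were at least 1.5-fold lower in SMARCA4-KD1, where 12.2% of all measured genes were, and 4 of 8 in SMARCA4-KD2, where 9.74% were. In both knockdowns together it was 3 of 8, or 37.5% of the measured members, against 8.02% of all measured genes. Lower values of any size in both knockdowns were found for 6 of the 8 members and 39.3% of all measured genes. Both comparisons use the same NC array, so that an NC value that is off moves them together, and since the RNA came from whole cultures, fewer cells with a transcript and less of it per cell cannot be told apart. The median log2 change of the 8 members was -0.49 and -0.47, in the same order, and that of all measured genes was 0.00 and 0.02.

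**Figure D1:**
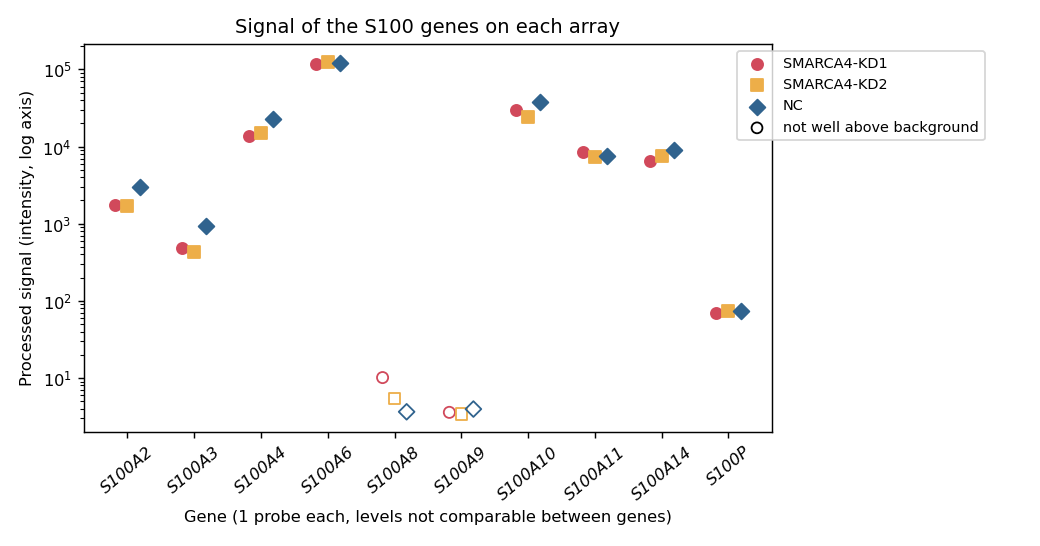
Processed signal (intensity, log axis) of 1 probe for each of the 10 S100 genes on the SMARCA4-KD1, SMARCA4-KD2 and NC arrays, with the brighter probe shown for S100A11 and hollow symbols for spots not well above background. The NC symbol lies above both knockdown symbols for S100A2, S100A3, S100A4, S100A10 and S100A14, and S100A8 and S100A9 have hollow symbols only.

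S100A3 had the lowest values relative to NC. Its probe, at chr1:153519998-153520057 on the minus strand (hg19, as are all probe positions here), gave a processed signal (intensity after the software's background subtraction) of 483 (SMARCA4-KD1), 426 (SMARCA4-KD2) and 925 (NC). Both knockdown arrays lay below NC, 2.03-fold and 2.22-fold after scaling. The log2 changes were -1.02 ± 0.20 and -1.15 ± 0.20, where ± is the error that the extraction software gives for the 2 spots and holds no difference between cultures. Whether a probe lies in coding or untranslated sequence was not analysed here. Of all measured genes, 3.40% were further below NC in the first knockdown and 1.57% in the second.

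S100A2 was measured by a probe at chr1:153533831-153533890 on the minus strand. Its signal was 1770.1 (SMARCA4-KD1), 1683 (SMARCA4-KD2) and 2967 (NC). The knockdown arrays were nearly equal and both low, with log2 changes of -0.83 ± 0.20 and -0.85 ± 0.20, or 1.78-fold and 1.80-fold lower. S100A4, measured at chr1:153516198-153516257 on the minus strand, had a signal of 13817 (SMARCA4-KD1), 14890.4 (SMARCA4-KD2) and 22499 (NC). It was 1.73-fold and 1.55-fold lower than NC (log2 changes -0.79 ± 0.20 and -0.63 ± 0.20), and the second value lies close to the threshold. With normexp background correction the change in SMARCA4-KD2 was -0.57, short of 1.5-fold.

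The genes of the annexin-binding members differed from each other. S100A10, which forms a heterotetramer with annexin A2 at the plasma membrane and lacks calcium binding, was read at chr1:151955420-151955479 on the minus strand, with a signal of 29789 (SMARCA4-KD1), 24354 (SMARCA4-KD2) and 37259 (NC). Both knockdown arrays were below NC, by log2 changes of -0.41 ± 0.20 and -0.65 ± 0.20, and only the second passed 1.5-fold. S100A11, a partner of annexin A1, had 2 probes that adjoin each other at chr1:152005160-152005219 and chr1:152005219-152005278. The brighter one gave 8461 (SMARCA4-KD1), 7227 (SMARCA4-KD2) and 7482 (NC), and the other 6521, 5716 and 6059. On both probes NC lay between the knockdown arrays, with log2 changes of 0.09 and -0.08 on the brighter and 0.02 and -0.12 on the other, all smaller than the spot error of 0.20, and quantile normalization turned the brighter probe's value in SMARCA4-KD1 to -0.03.

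S100A6 (calcyclin), a member that binds annexins and the ubiquitin ligase adaptor CACYBP, gave a signal of 117355 (SMARCA4-KD1), 126245 (SMARCA4-KD2) and 119768 (NC). Its probe is listed over chr1:153507255-153507685, on the minus strand, a span longer than the probe itself. The 3 arrays lay close together, with log2 changes of -0.11 ± 0.20 and 0.04 ± 0.20, and the second turned to -0.02 with quantile normalization. S100A14, an epithelial member, was read at chr1:153587006-153587065 on the minus strand and gave 6434 (SMARCA4-KD1), 7458 (SMARCA4-KD2) and 9002 (NC). NC was the highest of the 3 arrays. The gene was 1.48-fold lower in SMARCA4-KD1 (log2 change -0.57 ± 0.20) and 1.23-fold lower in SMARCA4-KD2 (-0.30 ± 0.20), and with quantile normalization the first value was -0.70 and past 1.5-fold.

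S100P, a ligand of AGER that lies apart from the rest at chr4:6698819-6698878 on the plus strand, gave a signal of 69.5 (SMARCA4-KD1), 73.2 (SMARCA4-KD2) and 73.1 (NC). The arrays did not separate, with log2 changes of -0.16 and -0.03, the second of which was 0.01 with normexp background correction. S100A8 and S100A9, the subunits of calprotectin that are abundant in neutrophils and inflamed epithelium, were not well above background on any array. The S100A8 probe (chr1:153362548-153362607) read 10.1, 5.41 and 3.65 and the S100A9 probe (listed over chr1:153330874-153333143) 3.59, 3.41 and 3.96 in SMARCA4-KD1, SMARCA4-KD2 and NC, where the lowest signal well above background was between 16.4 and 17.7 on each array. A difference between conditions was not detectable for either gene, and no fold is given.

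The 2 siRNAs were also compared with each other for these genes. In SMARCA4-KD2 relative to SMARCA4-KD1, the log2 differences of the 8 members ran from -0.24 for S100A10 to 0.27 for S100A14. At least 1.5-fold apart were 0 of 8, beside 6.58% of all measured genes. S100A2 had the smallest difference, -0.02. The median absolute difference between the knockdown arrays over all genes was 0.13 and the 90th percentile 0.46, and 3 of the 8 members were under the median. These are differences between arrays of different siRNAs on 1 slide, and they hold no comparison with the second slide.

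**Figure D2:**
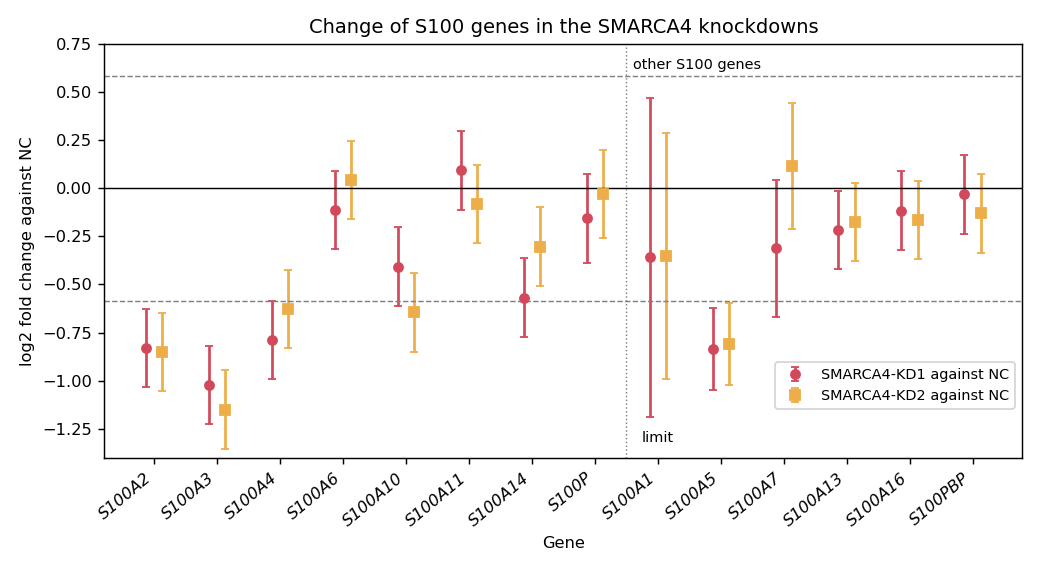
Log2 fold change of the 8 measured S100 members and 6 other S100-named genes in SMARCA4-KD1 and SMARCA4-KD2 against NC, with bars for the extraction software's error of the 2 spots, dashed lines at 1.5-fold and the word limit where a knockdown signal was not well above background. S100A2, S100A3, S100A4 and S100A5 lie below the lower dashed line in both knockdowns.

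With both knockdown arrays taken as 1 group against the NC array, limma gave 0 of 22619 genes at an adjusted p under 0.05, the smallest being 0.0742, and none of the members passed. With 1 residual degree of freedom, this fit assumes for the single NC array the spread of the knockdown arrays. Before adjustment, limma gave p under 0.05 for S100A2, S100A3, S100A4 and S100A10, all lower, as for 31.4% of all genes (14.8% lower). The outcome differed between settings of the processing, among them the filter on dim probes. When only the 19503 genes with a probe well above background on all arrays were fitted, limma called 5 of the 8 members, all lower, at adjusted p of 0.0023 for S100A3, 0.0026 for S100A2, 0.0046 for S100A4, 0.018 for S100A10 and 0.043 for S100A14, and 26.5% of all genes in either direction. In the methods' t-test on the same values, the members did not stand out from all genes, either at the methods' p or after adjustment.

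S100A2, S100A3 and S100A4 are neighbours in the S100 cluster, and the other S100 genes of the array were read beside them. S100A5, which adjoins S100A4 and is known from sensory neurons, had a signal of 103 (SMARCA4-KD1), 101 (SMARCA4-KD2) and 173 (NC). It was low in both knockdowns, with log2 changes of -0.83 and -0.81. The probes of S100A5, S100A4, S100A3 and S100A2, in this order and all on the minus strand, span 21.3 kb, and the only other gene name with a probe inside the span, LOC101928034 on the opposite strand, was not well above background on any array. All 4 genes of the stretch, whose bounds were set with these values known, were at least 1.5-fold lower in both knockdowns. The gaps between their probes were 3.55, 3.74 and 13.8 kb. On one side S100A6 follows 4.90 kb from the S100A5 probe, with the small changes given above. On the other side S100A16 follows 45.8 kb from the S100A2 probe, with signals of 12211, 11387 and 12480.3 in SMARCA4-KD1, SMARCA4-KD2 and NC and log2 changes of -0.12 and -0.16.

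The rest of the family was near NC or dim. S100A13, which takes part in the release of growth factors that lack a signal peptide, gave 21191, 21028 and 23237 in the same order of arrays, with log2 changes of -0.22 and -0.18. S100A7 (psoriasin) gave 22.8, 29.6 and 26.7, close to background, with changes of -0.31 and 0.12 that differ in sign. S100A1 was well above background in NC only, with a signal of 20.4, and was at least 1.28-fold higher there than in either knockdown. S100PBP, which is not an S100 protein but a nuclear protein that binds S100P, had changes of -0.03 and -0.13 on its brighter probe and -0.26 and -0.06 on the other. S100A7A, S100A7L2, S100A12, S100B, S100G and S100Z were not well above background on any array. Of the 6 measured genes of this list, S100A5 alone (16.7%) was 1.5-fold lower in both knockdowns, beside 8.02% of all measured genes.

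In the wider region, the share of lower genes was close to that among all measured genes. Within 1 Mb of the outermost S100 probes on chromosome 1 (chr1:150955420-154604335), 86 of 149 other gene names were measured. In both knockdowns 6 of them (6.98%) were at least 1.5-fold lower and 2 higher, beside 8.02% and 6.36% of all measured genes. The median log2 changes of the 86 genes were 0.01 and 0.06. Among the neighbours furthest below NC were RIIAD1 at -0.97 and -1.05 and a probe with no gene symbol, A_33_P3237835, at -0.88 and -0.79. The latter was well above background on 2 of the 3 arrays, and its SMARCA4-KD1 value is a limit. The neighbours furthest above NC were TUFT1 at 0.98 and 0.87, PIP5K1A at 0.81 and 0.91, which are limits because its NC signal was not well above background, and OAZ3 at 0.68 and 0.56.

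The promoters of S100A2, S100A3 and S100A4, and of S100A6 close by, are shown because these members lie together and differ in their values. All 10 members matched an entry in the RefSeq promoter table (GRCh38.p14), with 13 start sites among them, and the 250 bases before each start site were searched. The motifs were TGANTCA, the core of AP-1 sites, which reads alike on both strands, and TATAAA, searched on both strands. They were chosen with the values known, cannot overlap each other, and were found in 2308 (6.57%) and 3763 of the 35116 promoters of the table. S100A2 has 2 start sites in the table, and the one shown holds TGACTCA, 52 bases before it, while the other holds neither motif. S100A3 holds TGAGTCA, 225 bases before its start site, S100A4 holds TATAAA at 31 bases, and S100A6 holds neither. The matches, in capitals below, are descriptions of letters and not of bound sites. The sequences run 5′ to 3′ on the minus strand, at chr1:153565845-153566094 for S100A2, chr1:153549259-153549508 for S100A3, chr1:153545807-153546056 for S100A4 and chr1:153535992-153536241 for S100A6.
S100A2: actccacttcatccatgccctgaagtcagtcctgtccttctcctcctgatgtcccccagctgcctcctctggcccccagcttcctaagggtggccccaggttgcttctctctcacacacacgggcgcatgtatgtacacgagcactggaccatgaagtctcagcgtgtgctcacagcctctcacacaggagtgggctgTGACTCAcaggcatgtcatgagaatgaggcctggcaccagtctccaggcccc
S100A3: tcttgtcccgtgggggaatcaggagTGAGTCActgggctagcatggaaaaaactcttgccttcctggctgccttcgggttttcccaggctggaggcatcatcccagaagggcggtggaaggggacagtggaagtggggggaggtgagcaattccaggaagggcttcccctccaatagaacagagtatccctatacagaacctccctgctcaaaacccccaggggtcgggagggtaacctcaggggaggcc
S100A4: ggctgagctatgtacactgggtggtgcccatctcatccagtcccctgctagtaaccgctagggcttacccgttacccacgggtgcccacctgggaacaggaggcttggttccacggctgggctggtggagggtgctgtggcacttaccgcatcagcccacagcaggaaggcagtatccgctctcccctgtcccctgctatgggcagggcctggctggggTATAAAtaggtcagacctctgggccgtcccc
S100A6: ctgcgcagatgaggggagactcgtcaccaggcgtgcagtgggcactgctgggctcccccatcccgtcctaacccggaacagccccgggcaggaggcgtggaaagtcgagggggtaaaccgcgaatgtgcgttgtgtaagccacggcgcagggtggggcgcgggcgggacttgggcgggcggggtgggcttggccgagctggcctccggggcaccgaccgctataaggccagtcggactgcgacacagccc
The S100A6 sequence holds 24 CG dinucleotides and those of S100A2, S100A3 and S100A4 hold 4, 4 and 7, where the median of the table is 11. Among the other measured members, S100A10, past 1.5-fold lower in SMARCA4-KD2 alone, holds 24. S100A14, below NC in both knockdowns but short of 1.5-fold, holds 4. S100A11 and S100P, both near NC, hold 15 and 4. S100P also holds TATAAA, 28 bases before its start site. Outside the members, TATAAA was found 28 bases before S100A7, close to background, and 29 bases before a start site of S100A13, near NC. The start sites of S100A16, the flanking gene near NC, hold 6 and 1 CG dinucleotides. Those of S100A5, low in both knockdowns, hold 1 and 5. Of the 2 start sites of S100A5, one holds TGAGTCA at 17 bases and the other holds neither motif. TGANTCA was also found before 1 of the 3 start sites of S100PBP, near NC in its values, as TGACTCA at 149 bases, and before S100A12, which was not measured, as TGAATCA at 57 bases.

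Genes of proteins that bind S100 proteins were examined next. All 24 binding partners other than annexins were measured, with medians of -0.20 and -0.11. Of these, 7 (29.2%) were at least 1.5-fold lower in both knockdowns and 1 was higher, beside 8.02% and 6.36% of all measured genes. MYH9 and MYH10, heavy chains of non-muscle myosin, which S100A4 binds, were among the lower ones. MYH9 had a signal of 5453 (SMARCA4-KD1), 6641 (SMARCA4-KD2) and 10215 (NC), and MYH10 had 400.5, 416 and 632. MYH9 was thus 1.99-fold and 1.57-fold lower and MYH10 1.67-fold and 1.55-fold lower. The third such heavy chain of the list, MYH14, named for completeness and outside the fold rule, was short of 1.5-fold, at log2 changes of -0.27 and -0.28. TPM2, a tropomyosin, gave log2 changes of -1.08 and -0.80, and PPFIBP1 (liprin-β1, bound by S100A4) gave -0.81 and -0.68. The plasminogen activators, whose activity at the cell surface S100A10 is known to support, were further below NC, PLAT with 488, 447 and 1106 in the same order of arrays and PLAU with 5289.9, 6716 and 11618. PLAT was 2.40-fold and 2.53-fold lower and PLAU 2.33-fold and 1.77-fold lower. TRPV6, a calcium channel that S100A10 brings to the membrane, gave -0.86 and -0.63 at a signal near background (17.9 in SMARCA4-KD1). MDM2, the p53 ubiquitin ligase, which some S100 proteins bind, was the higher one, at 0.84 and 0.71 on its brightest probe, while its other probes gave 0.24 and 0.05, and 0.25 and 0.17.

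Annexins and receptors were examined in the same way. Of 12 annexin genes 10 were measured and 0 were 1.5-fold apart from NC in both knockdowns. Among all measured genes, 8.02% were lower and 6.36% higher in both. ANXA2, the partner of S100A10, gave 110251, 101064 and 117832 and ANXA1, the partner of S100A11, 37856, 40505 and 38915 in SMARCA4-KD1, SMARCA4-KD2 and NC. These 2 were named for their binding partners and outside the fold rule. On the brighter probe ANXA2 was 1.13-fold and 1.19-fold lower, while its other probe gave log2 changes of -1.15 and -0.36, so that the probes disagreed in SMARCA4-KD1. Of 9 receptor genes 5 were measured, and MCAM, an adhesion molecule that binds S100A8 and S100A9, was 1.94-fold and 2.05-fold lower (840.2 and 767 against 1539).

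Of 35 other EF-hand genes 31 were measured. Beside 8.02% of all measured genes lower and 6.36% higher in both knockdowns, 8 of these (25.8%) were at least 1.5-fold lower and 0 higher. They were RCN1 (-1.34 and -1.21) and RCN2 (-1.04 and -0.95), which are calcium-binding proteins of the secretory pathway, the nucleobindins NUCB1 (-0.99 and -0.84) and NUCB2 (-0.63 and -0.62), calretinin (CALB2, -1.05 and -1.01), CALML4 (-0.76 and -0.68), the actin crosslinker ACTN4 (-0.75 and -1.25) and EFHD1. EFHD1 was well above background in NC only and was at least 2.54-fold and 2.52-fold higher there. It was kept for its NC signal, so its direction was fixed in advance, and it is counted among the 8. The medians of the list were -0.22 and -0.26. Across these lists, 8 of the genes that were 1.5-fold apart in both knockdowns had further probes. On all 10 such probes the direction was the same, and 5 of the 10 were past 1.5-fold in both. The further probes of TRPV6 and EFHD1 were not well above background in either knockdown, so their values are limits. Such a probe was kept for its NC signal, which fixed its direction in advance. The TRPV6 probe is among those past 1.5-fold. The probes below that were those of MDM2, PLAU, CALML4 and EFHD1.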

How the data were processed

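Agilent 1-colour (Cy3) gene expression arrays of HCT116 cells were used, with 1 array each for SMARCA4-KD1, SMARCA4-KD2 and NC. The deposited files give each spot's intensity as extracted by the authors (Agilent Feature Extraction 10.7.1.1), with no normalization between arrays, and 0 or 1 flags, used as given. A deposited series-level table holds intensity values equal to these within 0.1% for the 57871 probes with 1 spot, except 1 probe outside the S100 genes. Control spots and outlier flags were left out, and each array's 75th percentile was subtracted from log2 of the processed signal. Values not well above background were set to the higher of themselves and the lowest signal well above background on the array, so that changes against them are limits and understate the fold. A probe was used if 1 array or more measured it well above background, and the brightest stood for a gene name, as given in the files. Signals of different probes were not compared, and 1 spot per probe and 1 array per condition limit the precision.

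The difference of each knockdown from NC was read against 1.5-fold, as in the study's methods, without a test. Both knockdowns were compared with NC by limma 3.58.1 (R 4.3.3), with a trend on intensity and p-values adjusted by Benjamini-Hochberg, and by the methods' t-test. The fold calls and the fit were run on simulated arrays with known changes. All arrays were given the same spread there, so the fit's assumption for the single NC array was not checked. Python 3.11.15 (numpy 2.4.6, pandas 2.3.3, scipy 1.17.1, matplotlib 3.10.9) was used otherwise. Named were all S100 genes, genes of the annexin, partner, receptor and EF-hand lists at least 1.5-fold apart in both knockdowns, and the 3 neighbours furthest from NC each way, of which 1 is not reported here. The members and lists were chosen with earlier results of these data known. Promoters came from RefSeq (GRCh38.p14), and protein sequences were not used here.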

Additional observations from a re-analysis of the deposited data

How the results depend on the processing

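Each member's change in each knockdown was recomputed under 8 other settings of scaling, background, filter, floor and probe choice. Of these 128 values, 0 moved by more than the spot error. At a 2-fold threshold, 1 member (S100A3) was lower in the first knockdown, 1 in the second and 1 in both. In the other lists (cell type markers not counted), 5 genes were called in both knockdowns in place of 26. The share of all measured genes at 2-fold is not given here, so these counts hold no comparison with it. The limma count depended on the setting. It was 0 members (0 of 22619 genes) as reported, 4 (2432 genes) with quantile normalization, 3 (3643) with normexp, 3 (1598) with the percentile over probes well above background, 5 (5174 of 19503) with only probes well above background on all arrays, 7 (31028 of 43299) with no filter on dim probes, 3 (3362) with no floor, 4 (3626) with the series-level table and 4 (7101) without adjustment. The cause was not tested. It stayed at 0 members with the mean over probes, without the intensity trend and with the methods' t-test. With no filter the count is over all 10 members, because S100A8 and S100A9 were fitted too. All their values were set to the lowest signal well above background on the array. With no filter the medians of all genes moved to -0.15 and -0.14, which is the change between these set values. The count of that setting therefore holds no comparison with the others. No paired analysis was possible because each condition has 1 array, for which reason no array could be left out either. A slide block could not be fitted, since the slides hold different conditions.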
